A study of Bos taurus with 8 samples.

Results

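Satellite cells (SCs), the stem cells of skeletal muscle, were compared between freshly digested bovine muscle and the same preparations after 72 h of culture. The members were the barcodes that carried the deposited label SCs in 2 of the series' libraries, 647 at the Muscle timepoint and 2282 at passage 0 (P0), together 2929 of the 36129 labelled cells of the series. They made up 14.7% of the 4395 cells kept at Muscle and 23.8% of the 9591 cells kept at P0.

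The study followed muscle-derived cells from cattle through long-term serum-free culture as a source of cells for cultured meat. The Muscle group held unsorted cells of semitendinosus muscle from 10 Belgian Blue animals, calves and adults of both sexes, dissociated with collagenase and loaded without culture. The P0 group held adherent cells of 9 of these animals, grown without serum on fibronectin for 72 h, with donor 3 present at Muscle alone. The methods describe P0 cells as unsorted, while their label names SCs and FAPs beside unsorted cells. Cells of all donors of a timepoint were pooled into 1 library and assigned back to their donor by genotype, so time in culture and library cannot be told apart. The labels list P0 as run 1 and run 2 and Muscle as run 1 alone. The P0 counts are those of the matrix filed under run 1. No animal was treated or genetically modified, and SCs shared their dish with the other muscle-derived cells, among them fibro-adipogenic progenitors (FAPs), the fibroblast-like cells of the interstitium.

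In resting muscle, SCs lie between the fibre and its basement membrane and are kept out of the cell cycle by signals of this niche, among them Notch ligands, calcitonin and collagen V. Injury or dissection releases them: they enter the cycle and raise the myogenic factor MYOD1, ribosome production and glucose use. Later they either fuse under MYOG or return to quiescence. Dissection itself starts an early response of FOS, JUN and heat-shock genes within the time that enzymatic digestion takes.

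Raw counts of unique molecular identifiers (UMIs, 1 per captured transcript) were summed over the SCs of each donor. Muscle SCs had a median of 3861 UMIs per cell and P0 SCs 18203, and the summed profiles held 97693 to 450674 UMIs from 26 to 98 cells at Muscle and 920291 to 9630375 UMIs from 45 to 469 cells at P0. The median share of mitochondrial UMIs was 3.30% and 3.02%. Genotype doublets took 8.11% of barcodes at Muscle and 39.4% at P0 and were removed, while doublets of 1 donor could not be found. Both libraries shared 43 barcode sequences, 7 of them among the kept cells. Fibre genes were set aside. Of these, 22 of 27 tested fibre genes were lower at P0 and 2 higher, and the summed level of 11 fibre markers in SCs was 46.1% of that in the other cells at Muscle and 90.7% at P0.

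The label was checked against markers. The 11 SC markers summed to 455% of the level in all other cells at Muscle and to 585% at P0. In pooled CPM (counts scaled to equal library size), their sum fell from 3134.79 to 213.047 in SCs. In the other cells it fell from 688.577, with DLK1 at 432.713 and DES at 163.203, to 36.4443. The higher percentage at P0 thus came from the larger fall in the other cells, not from a rise in SCs. At P0, PAX7, MYF5, ITGA7 and NCAM1 each stood at several times the level of the other cells (PAX7 3063%, MYF5 2124%, ITGA7 632%, NCAM1 544%). At least 1 UMI of these 4 genes was found in 94.0% of SCs at Muscle and 83.5% at P0, against 27% of FAPs and 9.39% of vascular endothelial cells (VECs) at P0. DLK1, another SC marker of the list, stood at 51% of the level of the other cells at P0, and CHRDL2 had 2 UMIs in SCs there. Levels of some FAP markers in SCs were high at P0. The 8 FAP markers summed to 6.19% of the level of the other cells at Muscle and to 49.7% at P0. Their sum went from 1371.6 to 2833.4 CPM in SCs and from 22145 to 5696.52 CPM in the other cells. The higher percentage at P0 thus came from the rise in SCs and the fall in the other cells. In SCs, PDGFRA, DCN, LUM, COL1A1, COL1A2 and COL3A1 were higher in pooled CPM at P0. MFAP5 went from 53.1 to 1.87 CPM there and DPT from 6.42 to 6.20 CPM. At P0, LUM in SCs stood at 76.1% of the FAP level, DCN at 39.7%, PDGFRA at 21.7%, and MFAP5 and DPT at 9.82% and 8.61%. In VECs of the same dish LUM reached 12.2% of the FAP level, DCN 8.92%, PDGFRA 7.38%, MFAP5 11.6% and DPT 7.15%. Of the other lists, vascular markers in P0 SCs summed to 6.14% of the other cells and monocyte and macrophage markers to 32.0% with PTPRC at 0. Lymphatic markers stood at 10.7% of the other cells at P0, markers of smooth muscle and mesenchymal cells (SMMCs) at 39.7% and neutrophil markers at 44.8%. Lymphocyte markers stood at 54.1% with MS4A1 at 0, from 0.415 against 0.767 pooled CPM. Tenocyte markers stood at 310% from 1.93 CPM in the median donor, and glial markers at 231% through S100B, with SOX10 at 0. In 25 Muscle (3.86%) and 2142 P0 SC barcodes (93.9%), UMIs of PDGFRA, DCN, LUM and ITGA5 together exceeded those of ITGA7, MYF5, NCAM1 and DES. Leaving these out removed 2142 of the 2282 P0 SC barcodes and kept 6 P0 donors, in which 712 genes rose and 988 fell. Because this choice reads the genes just named, their values under it, and those of lists that hold them, are partly set by it. The part of FAP RNA in the results was not tested beyond this. Counts for barcodes with an SC marker UMI alone, given below, are no such test, since that choice takes no FAP RNA out of the barcodes kept.

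Of 5221 genes tested with edgeR, 1789 (34.3%) passed an adjusted p below 0.05 and a log2 fold change (log2FC, P0 over Muscle) beyond 1, 825 higher (15.8%) and 964 lower (18.5%), with a median log2FC of -0.01 over all tested genes. These genes are called higher, or rose, and lower, or fell, in what follows. In the 9 donors with both groups, 742 of the higher genes rose in every donor and 876 of the lower genes fell in every donor. Donor ranges of the groups did not overlap for 34.2% of tested genes. Over SC barcodes with a marker UMI alone, a setting chosen after seeing the data, 892 genes rose and 916 fell. Fewer SCs of a kind and less RNA per cell cannot be told apart in summed profiles. Levels are shares of a profile's UMIs, and P0 SCs held more UMIs per cell, so a lower level need not mean fewer UMIs per cell. The profiles of a group differ by animal, and the animals differ in age class and sex, which the main fit does not include. The p-values thus measure the spread between these animals within 1 library per time.

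The plot of called shares covers 26 gene lists, fibre genes left aside. Lipid synthesis, redox, glycolysis, ribosome, replication and mitosis lists lay on the side of higher genes. Niche, Notch, myogenic, immediate early and IGF-binding lists lay on the side of lower genes.

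**Figure D1:**
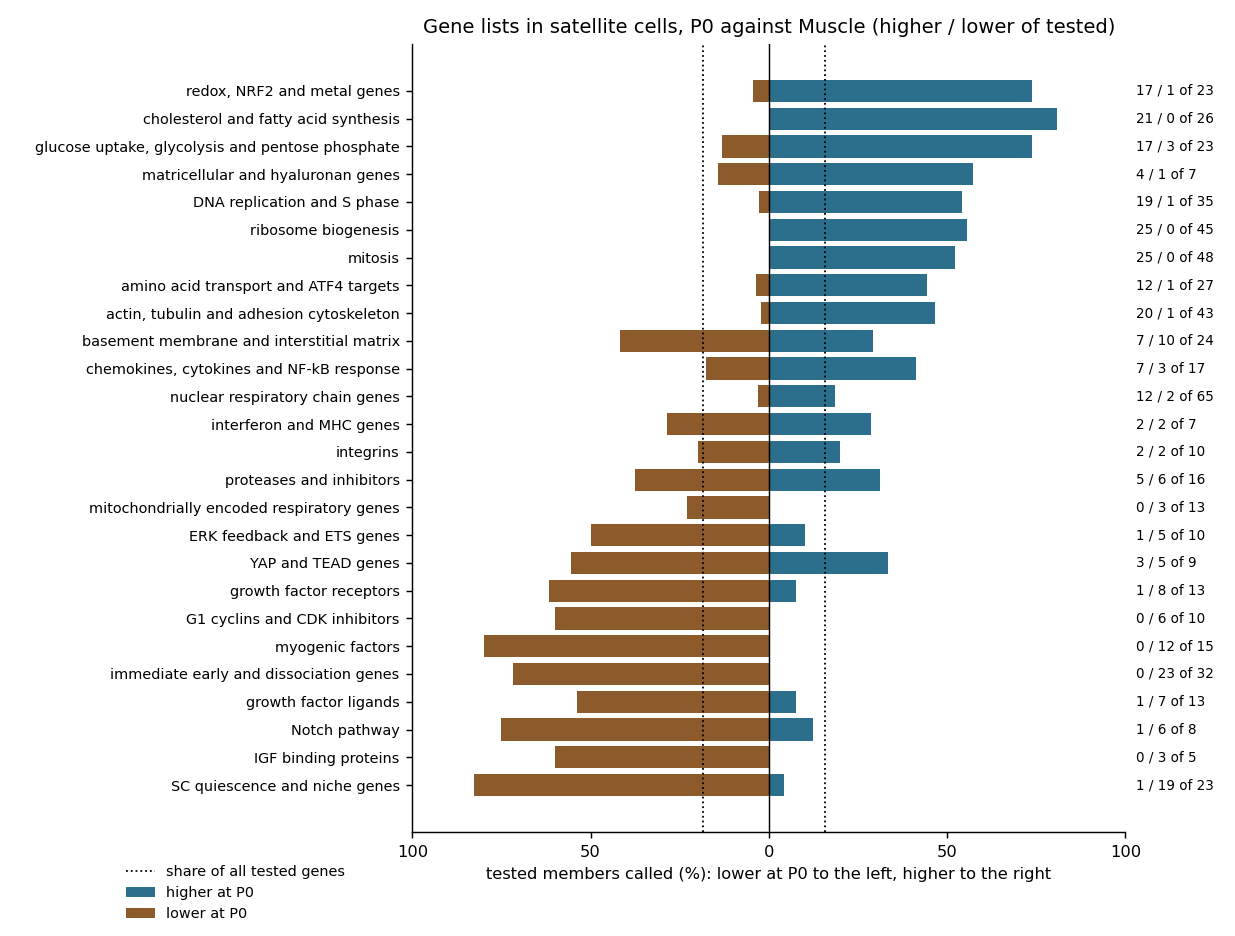
Share of the tested members of each gene list called higher at P0 (bars to the right, percent) or lower (bars to the left), ordered by median log2FC. Dotted lines mark the shares over all tested genes, 15.8% higher and 18.5% lower. Of the lists, 21 of 26 cholesterol and fatty acid genes rose and 19 of 23 quiescence and niche genes fell.

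Of 15 tested myogenic factors, 12 fell and none rose (median log2FC -2.33), and 11 of 15 fell without the barcodes richer in FAP markers (median -1.60). That choice reads MYF5, a member of the list, so the smaller fall is partly set by it. Values are normalised CPM of the summed SCs of a donor, given as the lowest, median and highest donor, over 10 donors at Muscle and 9 at P0, with log2FC ± SE. MYF5, which marks committed SCs, measured 439, 731 and 1844 CPM at Muscle and 20.3, 63.5 and 102 CPM at P0 (log2FC -3.73 ± 0.29, adjusted p = 9.26e-10). MYOD1, the factor of activated myoblasts, measured 48.2, 125 and 309 CPM at Muscle and 0.655, 1.93 and 39.7 CPM at P0 (-4.71 ± 0.61, adjusted p = 1.50e-06). For both genes every P0 donor lay below every Muscle donor. MYOG, the factor of terminal differentiation, measured 0, 296 and 1179 CPM at Muscle, the 0 being donor 3, and 0, 0.232 and 11.9 CPM at P0 (-8.85 ± 0.83). MYMK, the myomaker that myoblasts need for fusion, was found with 140 UMIs at Muscle and 0 at P0 and was at least 749-fold lower against a limit of 3 UMIs over the P0 donors. PAX7 was too low for the test, with 4.72, 17.2 and 36.4 CPM at Muscle and 2.25, 3.58 and 5.77 CPM at P0, and was lower in each of the 9 donors. The SC adhesion molecule CDH15, also untested, measured 0, 11.4 and 20.6 CPM at Muscle and 0.436, 1.13 and 1.69 CPM at P0. ID1, an inhibitor of MYOD1 that BMP signals induce, did not pass the test, with medians of 138 and 141 CPM and P0 donors spread from 62 to 494 CPM. DES, the muscle intermediate filament, had a median of 181 CPM at Muscle and 31.7 CPM at P0 (log2FC -2.08 ± 0.44), but was at 0.06 without the barcodes richer in FAP than in SC markers, a choice that itself reads DES and keeps few P0 cells. Pooled over cells, DES stood at 181 CPM in Muscle SCs and 163 CPM in the other Muscle cells, so its Muscle level was not particular to SCs.

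**Figure D2:**
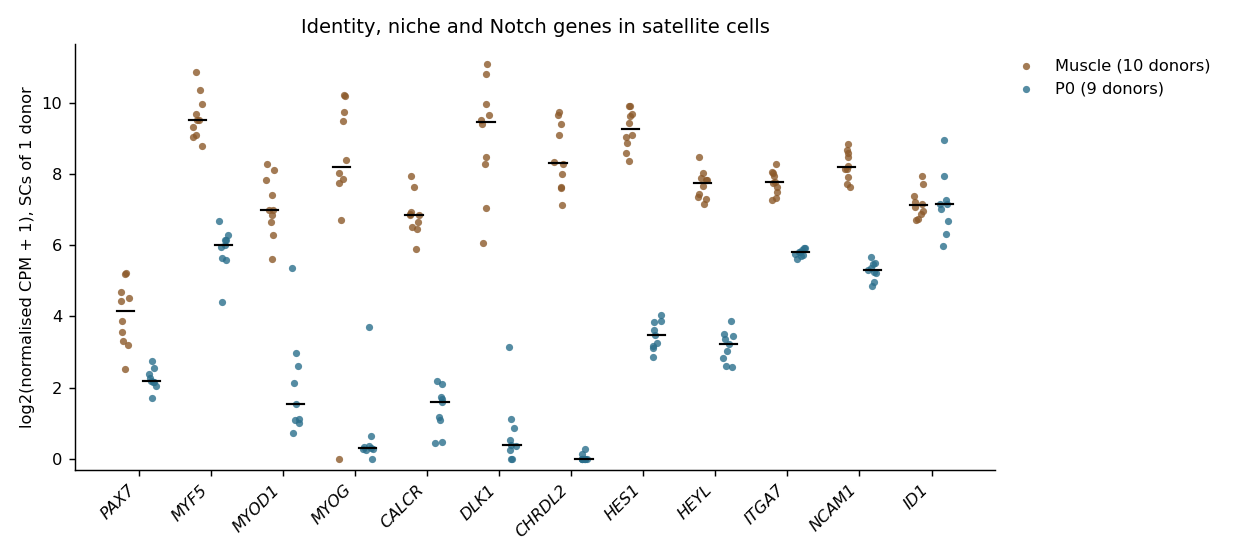
Normalised CPM of 12 identity, niche and Notch genes in summed SCs of each donor, as log2(CPM + 1), with Muscle in brown (10 donors), P0 in blue (9 donors) and medians as black bars. MYF5 fell from a median of 731 to 63.5 CPM and HES1 from 617 to 10.1 CPM, with all P0 donors below all Muscle donors, while ID1 overlapped between the groups.

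Among genes of the quiescent niche 19 of 23 fell, 1 rose and the median log2FC was -3.32. The median was -2.39 with a lower minimum count (17 of 26 lower, 2 higher) and -2.50 without the barcodes richer in FAP markers (18 of 22 lower, none higher). CALCR, the calcitonin receptor that holds SCs in quiescence, went from 58.9, 114 and 243 CPM to 0.361, 2.01 and 3.54 CPM (edgeR adjusted p = 1.08e-13). DLK1, an imprinted Notch ligand relative, measured 65.8, 706 and 2179 CPM at Muscle and 0, 0.317 and 7.89 CPM at P0 (-10.37 ± 0.80). CHRDL2, a secreted BMP antagonist, was found with 1017 UMIs at Muscle and 2 at P0, a ratio of P0 to Muscle of 0.000122 with a 95% counting interval of 1.48e-05 to 0.000444. None of these 3 genes exceeded 7.89 CPM in any donor at P0. CHODL, a membrane lectin of the SC marker list, fell by 5.33 on the log2 scale. ITGA7, the laminin receptor of SCs, measured 154, 216 and 309 CPM at Muscle and 47.5, 54.9 and 60 CPM at P0 (-2.05 ± 0.11), and NCAM1 had a log2FC of -3.00 ± 0.14 with medians of 290.1 and 38.3 CPM. At the full depth of each cell, however, an ITGA7 UMI was found in 49.6% of SCs at Muscle and 55.5% at P0. CDKN1C, the imprinted cyclin-dependent kinase inhibitor, ranged widely at Muscle, from 76.8 over 679.8 to 2887 CPM, and fell to 4.81, 16.5 and 66.8 CPM (-5.48 ± 0.62). Its highest Muscle donors, 2, 5, 6 and 10 at 1462 to 2887 CPM, also held the most MYOG, 717 to 1179 CPM. Donor 3 was lowest for CDKN1C and had no MYOG UMI. Whether its fall belongs to quiescent or to differentiating SCs was not tested. SPRY1, an inhibitor of FGF signalling that marks quiescent SCs, fell by 3.62. GPX3, the extracellular glutathione peroxidase, was the list's single riser, with 0, 10.9 and 77.4 CPM at Muscle, 20.3, 61.4 and 202 CPM at P0 and overlapping donors (1.74 ± 0.60, adjusted p = 0.0147).

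In the Notch pathway 6 of 8 tested genes fell and 1 rose (median log2FC -2.59). With 10 genes tested the counts were equal and the median was -1.41 with donor as a block and -1.43 without donor 3, and it was -1.03 with a lower minimum count and -1.49 without a filter. HES1, a direct Notch target, measured 329.8, 617 and 956 CPM at Muscle and 6.32, 10.1 and 15.3 CPM at P0 (-5.93 ± 0.24, adjusted p = 9.11e-15). HEYL, a second target that SCs express, went from 143, 213 and 351 CPM to 5.02, 8.3 and 13.5 CPM (-4.76 ± 0.18). Of the receptors, NOTCH3 fell from a median of 73.3 to 6.97 CPM (-3.41 ± 0.22) whereas NOTCH2 rose from 16.1 to 37.2 CPM (1.24 ± 0.26), higher in 8 of 9 donors. The ligand JAG1 fell from 98.6 to 8.35 CPM (-3.67 ± 0.20). HEY1 was too low to test, with a median of 13.1 CPM at Muscle and 0.436 CPM at P0.

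Immediate early and heat-shock genes, the known response to tissue dissociation, were high at Muscle: 23 of 32 tested fell and none rose (median log2FC -2.44). FOS measured 1691, 2495 and 3571 CPM at Muscle and 14.7, 27.1 and 50.8 CPM at P0 (-6.42 ± 0.24), and its partner JUN 4574, 6919 and 8223 CPM against 166, 201 and 323 CPM (-4.90 ± 0.16). HSPA1A, the inducible HSP70 chaperone, was the most variable, with 1393, 7976 and 22668 CPM at Muscle and 40.4, 59.2 and 89.3 CPM at P0 (-7.08 ± 0.53). FOSB, ZFP36, ATF3 and EGR1 fell too, with log2FC of -7.88, -6.38, -5.37 and -3.80. These genes were not particular to SCs at Muscle, where SCs stood at 132% of the other cells for FOS, 165% for JUN and 294% for EGR1.

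The cell cycle programme was read from its inhibitors, its replication genes and its mitotic genes. Of 10 tested G1 cyclins, inhibitors and pocket proteins 6 fell and none rose (median log2FC -1.30). With more genes tested, 2 of 13 rose and 6 fell with donor as a block (median -0.88), 4 of 16 rose and 7 fell with a lower minimum count (-0.65), and 8 of 20 rose and 8 fell without a filter (-0.43). CDKN1B, the p27 inhibitor, went from 117, 158 and 206 CPM to 17, 20.8 and 25.1 CPM (-2.89 ± 0.12). RB1, the retinoblastoma protein, fell from a median of 61 to 20.2 CPM (-1.62 ± 0.19), and CDKN1A, the p53 target p21, from 199 to 68.2 CPM (-1.42 ± 0.31), with overlapping donors for both. MYC did not pass the fold threshold (-0.96 ± 0.14, adjusted p = 1.30e-06) and had medians of 166 and 86.6 CPM. CCND1, cyclin D1, was untested at 0, 5.37 and 27.5 CPM in Muscle and 14.4, 32.7 and 62 CPM at P0, and stood at 28.5% of the other cells at P0.

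Of 35 replication genes 19 rose and 1 fell, and of 48 mitotic genes 25 rose and none fell, with median log2FC of 1.13 and 1.01. Without the top 10% of barcodes by UMIs, 30 of 41 mitotic genes rose and the median was 1.68. RRM2, the ribonucleotide reductase subunit of S phase, measured 0, 8.71 and 44.8 CPM at Muscle and 74.4, 84.2 and 126 CPM at P0 (2.39 ± 0.34). TK1 rose by 2.96 ± 0.26 and the helicase subunit MCM2 by 1.73 ± 0.22 on the log2 scale, as did the chromatin assembly factor CHAF1A by 2.51 ± 0.30. PCNA, the replication clamp, did not pass the fold threshold (0.79 ± 0.19) but passed under 3 alternatives at 1.11 to 1.37, and RPA2, a single-strand binding protein, fell from a median of 207 to 61.8 CPM. MKI67, the proliferation antigen, had 0, 49.1 and 131 CPM at Muscle and 181, 236 and 275 CPM at P0 (1.84 ± 0.26, adjusted p = 3.08e-06), so that all P0 donors lay above all Muscle donors. ANLN, needed for cytokinesis, rose by 2.79 ± 0.22, CCNB1 by 2.43 ± 0.24, PLK1 by 2.26 ± 0.23 and CDK1 by 1.70 ± 0.32. TOP2A had 0, 119 and 385 CPM at Muscle against 229.9, 297 and 355 CPM at P0 and missed the fold threshold (0.84 ± 0.36), but passed under 5 alternatives, at 1.08 in barcodes with an SC marker UMI to 1.97 without the top 10% of barcodes by UMIs.

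These mitotic genes were already present in Muscle SCs. MKI67 stood at 728% of the other cells there, TOP2A at 1272% and CCNB1 at 2194%, and at 126%, 123% and 92.4% of the other cells at P0. In FAPs the same genes changed more, and the SC minus the FAP log2FC was -3.56 ± 0.53 for MKI67, -4.57 ± 0.58 for TOP2A and -5.96 ± 0.56 for CCNB1 (edgeR interaction of cell type and time, adjusted p = 1.1e-06, 7.1e-08 and 1.5e-11). Over barcodes with an SC marker UMI alone, 33 of 49 mitotic genes rose, against 25 of 48 over all SC barcodes.

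Shares of cells were compared after every cell was thinned to 2000 UMIs, which left out 46 Muscle and 3 P0 SCs. A MKI67 UMI was found in 3.16% ± 3.19 (SD, n = 10 donors) of SCs at Muscle and in 24.5% ± 5.29 (n = 9) at P0, 4.62% and 60.8% without thinning, and in 22.3% of the other cells at P0. MYF5 was found in 58.0% ± 12 and 9.99% ± 3.49 of SCs, 70.0% and 51.4% without thinning, against 0.422% and 1.04% of the other cells. MYOD1 went from 18% ± 9.59 to 1.06% ± 1.75 and MYOG from 9.80% ± 6.87 to 0.270% ± 0.607 of SCs. ITGA7 went from 29.6% ± 6.56 to 11.2% ± 4.11 of thinned SCs, but was at 49.6% and 55.5% without thinning. DES went from 27.6% ± 10.7 to 8.61% ± 6.33, and was at 43.7% and 34.0% without thinning. Free RNA in droplets gives UMIs in cells that do not express a gene, and the P0 shares of MYOD1 and MYOG are set beside 0.0372% and 0% of the other cells. HES1 was found in 2.30% of SCs and 4.36% of the other cells at P0, but VECs and SMMCs of the dish expressed it (65.1 and 45.6 CPM pooled, SCs 10.3 CPM), so these cells give no background for it.

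**Figure D3:**
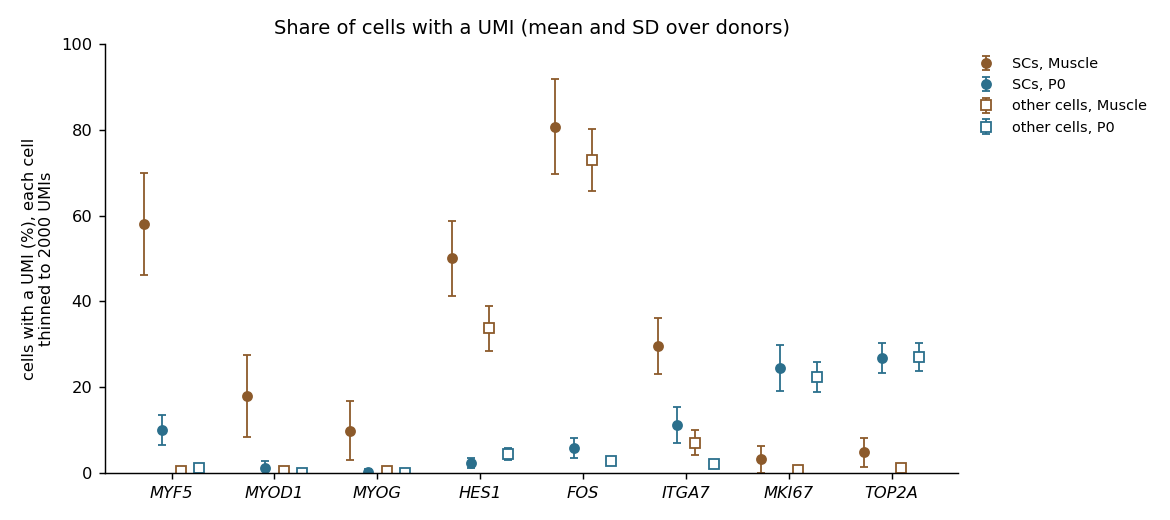
Share of cells with at least 1 UMI of 8 genes after thinning each cell to 2000 UMIs (percent, mean and SD over donors), for SCs (filled circles) and all other cells (open squares) at Muscle (brown) and P0 (blue). MYF5 went from 58.0% to 9.99% of SCs and MKI67 from 3.16% to 24.5%, near the 22.3% of the other cells.

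Ribosome biogenesis rose, with 25 of 45 tested genes higher, none lower and a median log2FC of 1.09. FBL, the methyltransferase of ribosomal RNA, went from 91, 123 and 186 CPM to 281, 336 and 446 CPM (1.40 ± 0.12), and the nucleolar protein NCL from 487, 604 and 752 CPM to 1132, 1338 and 1652 CPM (1.16 ± 0.09). All P0 donors were above all Muscle donors for both. MYBBP1A and the nucleoplasmin NPM3 rose by 2.73 and 2.59. Of 27 genes of amino acid supply and the ATF4 response 12 rose and 1 fell (median log2FC 0.95). With profiles thinned to the smallest, 3 of 8 rose and 2 fell (median 0.30). SHMT2, which makes glycine and one-carbon units in mitochondria, rose from 6.88, 11.5 and 32.9 CPM to 93.4, 121 and 156 CPM (3.09 ± 0.20). GARS1, the glycyl-tRNA synthetase, rose by 2.10 and the stress regulator NUPR1 by 2.95. ATF4 itself (-0.89 ± 0.09), ASNS (0.88 ± 0.20) and the transporter chain SLC3A2 (0.92 ± 0.16) missed the fold threshold, and SLC7A5 was untested at medians of 3.27 and 19.1 CPM. DDIT3, which ATF4 induces under stress, fell from 235, 275 and 375 CPM to 27.4, 45.1 and 75.1 CPM (-2.61 ± 0.17).

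Glucose use genes rose in 17 of 23 cases, with 3 lower and a median log2FC of 1.61. PKM, pyruvate kinase, measured 87.7, 156 and 194 CPM at Muscle and 1159, 1321 and 1499.6 CPM at P0 (3.10 ± 0.10, adjusted p = 5.00e-18). LDHA, which makes lactate, measured 13.7, 47.4 and 80.2 CPM and then 441, 518 and 577 CPM (3.42 ± 0.19), while LDHB had a log2FC of 1.17 ± 0.09. TKT, transketolase of the pentose phosphate pathway, had 0, 9.9 and 32.9 CPM at Muscle and 315, 352 and 407 CPM at P0 (4.99 ± 0.18). HK1, the first kinase of glycolysis, rose by 2.97 ± 0.16. The fallers were PDK4, which holds pyruvate back from oxidation (medians 202 and 5.88 CPM, -5.00 ± 0.30), the transporter SLC2A3 (-2.40 ± 0.29) and RPIA. SLC2A1 was untested, with medians of 11.7 and 14.4 CPM.

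Of 65 nuclear genes of the respiratory chain 12 rose, or 18.5%, near the 15.8% of all tested genes, and 2 fell (median log2FC 0.40). CYCS, cytochrome c, rose from a median of 97.5 to 343 CPM and the complex I subunit NDUFS8 from 121 to 365 CPM, while COX7A1, the muscle isoform of a complex IV subunit, fell from 169 to 28.3 CPM. The part of fibre RNA in the fall of COX7A1 was not tested. Of the 13 genes of mitochondrial DNA 3 fell and none rose (median -0.38), where 18.5% of all tested genes fell, a share not far from it. The fallers were ATP6 with 3797, 4535 and 5559 CPM against 1661, 1869 and 2129.7 CPM (-1.30 ± 0.08), ATP8 and ND4L.

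Of 26 lipid synthesis genes 21 rose and none fell, with a median log2FC of 2.19. HMGCS1, which starts the mevalonate pathway, measured 17.2, 35.4 and 54 CPM at Muscle and 710.1, 829.8 and 979.6 CPM at P0 (4.57 ± 0.12, adjusted p = 1.01e-19). SCD, the stearoyl-CoA desaturase, went from 0, 1.72 and 9.44 CPM to 113, 128 and 161 CPM (4.98 ± 0.25), DHCR7, the last step to cholesterol, from a median of 0 to 56.6 CPM (4.57 ± 0.32) and ACAT2 from 12.1 to 336 CPM (4.21 ± 0.19). FASN, the fatty acid synthase, rose by 2.74 ± 0.20. P0 SCs stood at 96.2% of the other cells for HMGCS1 and 107% for SCD.

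Of 23 redox and metal genes 17 rose and 1 fell, with a median log2FC of 2.50. TXN, thioredoxin, went from 189.7, 262 and 378 CPM to 4433, 5205 and 6458 CPM (4.27 ± 0.11, adjusted p = 1.01e-19). FTH1, the ferritin heavy chain, went from 1502, 2030.1 and 2525 CPM to 13568, 20444 and 24871 CPM (3.27 ± 0.11). Both were above the other cells of P0, at 148% and 144%. The metallothionein MT1E, a symbol shared by 2 annotated genes of which the more abundant is given, rose from 27.3, 108 and 349 CPM to 963, 2600.4 and 4484 CPM (4.35 ± 0.43). ME1, the malic enzyme that yields NADPH, rose by 3.87 ± 0.33 and HMOX1, heme oxygenase, by 1.92 ± 0.49. NQO1 and the transferrin receptor TFRC were untested, with medians of 6.98 and 21 CPM and of 5.68 and 15.1 CPM. MT3, a second metallothionein, fell from a median of 294 to 63.3 CPM (-1.88 ± 0.35).

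**Figure D4:**
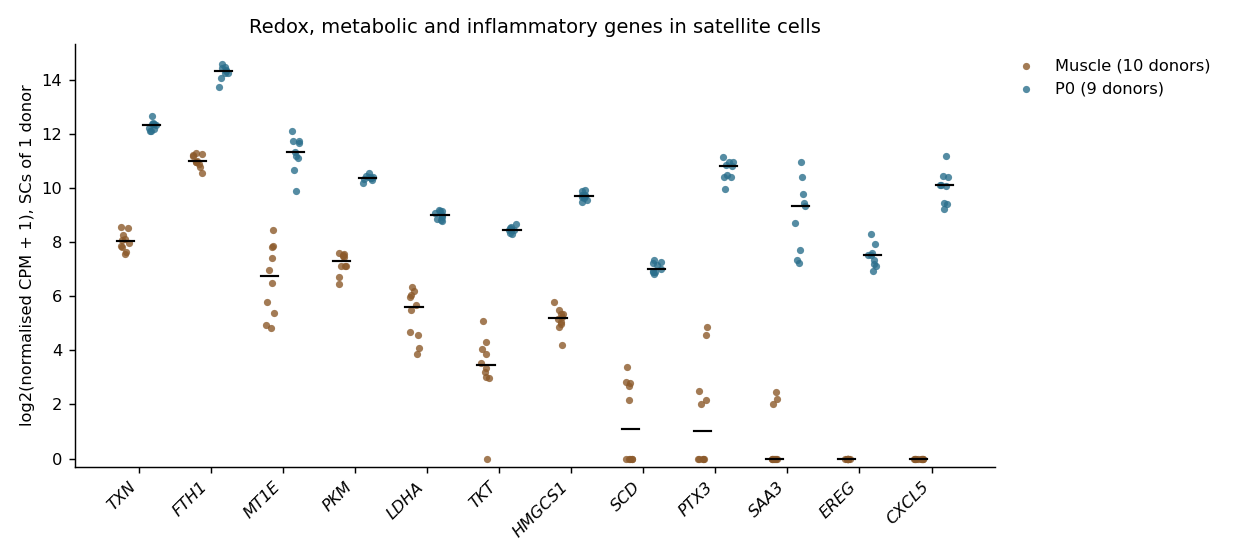
Normalised CPM of 12 redox, metabolic and inflammatory genes in summed SCs of each donor, as log2(CPM + 1), with Muscle in brown (10 donors), P0 in blue (9 donors) and medians as black bars. TXN rose from a median of 262 to 5205 CPM and HMGCS1 from 35.4 to 829.8 CPM, and CXCL5 and EREG were at 0 in all Muscle donors.

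Secreted inflammatory genes were among the largest rises. CXCL5, a neutrophil chemokine, had no UMI in Muscle SCs and 601, 1097 and 2308 CPM at P0, at least 889-fold higher against a limit of 3 UMIs over the Muscle donors. SCs held it at 14.7% of the FAP level and VECs of the same dish at 10.5%, and without thinning a UMI was found in 99.7% of SCs and 99.8% of the other cells, so the part of free RNA in this rise was not tested. SAA3, an acute-phase apolipoprotein, was found with 3 UMIs at Muscle and measured 148, 641 and 1996 CPM at P0, a ratio of 612 with a counting interval of 209.5 to 2969.6. In contrast to CXCL5 it stood at 442% of the level in the other cells. PTX3, a soluble pattern receptor, rose from 0, 1.5 and 27.9 CPM to 1005, 1793 and 2285 CPM (7.91 ± 0.35, adjusted p = 1.08e-13). CHI3L1, a secreted chitinase-like protein, was found with 2 UMIs at Muscle and reached 66.4, 153 and 289 CPM at P0, 450.1% of the other cells. CFB, complement factor B, had 2 UMIs at Muscle and 95.4, 187 and 328 CPM at P0. IL1R2, the decoy receptor of interleukin 1, was at 0 at Muscle and at 118, 251 and 587 CPM at P0, at least 221-fold higher.

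Of 17 tested chemokine, cytokine and NF-kB genes 7 rose and 3 fell (median log2FC 0.50). CCL2, a monocyte chemokine, went from 0, 4.76 and 80.3 CPM to 309, 441 and 833 CPM (4.94 ± 0.46). IL6 had 1 UMI at Muscle and 54.7, 77.7 and 144 CPM at P0, and CXCL2, at 0 in Muscle, was at least 60.4-fold higher. At P0 SCs held IL6 at 20.3% and CXCL2 at 17.8% of the FAP level, and VECs 23.9% and 24.5%, so neither stood above VECs of the dish. ICAM1 fell by 4.51 ± 0.25, CXCL10 by 3.67 ± 0.44 (-0.81, adjusted p = 0.273 in edgeR, without the barcodes richer in FAP markers) and CXCL12, a ligand for muscle progenitor migration, by 2.69 ± 0.38. Counts of this list fell to 4 higher and 3 lower of 14 without the barcodes richer in FAP markers, where the median log2FC was -0.44. With profiles thinned to the smallest, 6 genes were tested, 4 rose and 0 fell, and the median was 3.54. In the interferon and antigen list 2 of 7 rose and 2 fell (median 0.20): the immunoproteasome subunits PSMB9 (2.51 ± 0.29) and PSMB8 (2.16 ± 0.23) rose, the factor IRF1 fell from a median of 243 to 17.1 CPM (-3.70 ± 0.20) and IFI6 from 35 to 16.8 CPM, the last no longer past the threshold without donor 3 (edgeR adjusted p = 0.0546) and under several other settings.

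Of 13 tested growth factor ligands 7 fell and 1 rose (median log2FC -2.49). With more ligands tested, 8 of 16 fell and 2 rose with donor as a block (median -0.89), 9 of 20 fell and 4 rose with a lower minimum count (-0.38), and 14 of 41 fell and 8 rose without a filter (-0.41). EREG, epiregulin, a ligand of the EGF receptor, was at 0 in every Muscle donor, measured 122, 182 and 317 CPM at P0 and was at least 157-fold higher. SCs carried it at 1092% of the level of the other P0 cells. BTC, betacellulin, another EGF receptor ligand, moved the other way, from 163, 310.2 and 482 CPM to 2.55, 6.95 and 10 CPM (-5.64 ± 0.30). IGF2 went from 781, 1830.3 and 3464 CPM to 4.44, 9.01 and 21.4 CPM (-7.58 ± 0.38), FGF2 from a median of 105 to 7.44 CPM (-3.52 ± 0.23) and PDGFB from 58.8 to 3.94 CPM (-3.92 ± 0.27). HBEGF, VEGFA and INHBA were too low to test, with P0 medians of 0.196, 12.1 and 4.17 CPM. Of 13 receptors 8 fell and 1 rose (median -1.25), and FGFR4, the FGF receptor of muscle progenitors, went from 11, 97.7 and 249 CPM to 2.18, 9.09 and 25.3 CPM (-3.72 ± 0.43). LIFR and TGFBR3 fell by 3.74 and 3.01, and AXL was the riser (1.21 ± 0.25). MET, the receptor of hepatocyte growth factor, was untested, with medians of 12.8 and 7.45 CPM.

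IGF-binding proteins fell in 3 of 5 cases (median -2.85), in 2 of 4 without donor 3 (-1.78), in 3 of 6 with 1 higher at a lower minimum count (-1.72) and in 5 of 5 in barcodes with an SC marker UMI (-2.72). IGFBP7 went from 219, 317 and 702 CPM to 5.56, 9.58 and 13.5 CPM (-5.30 ± 0.20), IGFBP5 fell by 4.95 and IGFBP6 by 2.85. IGFBP1, present in SCs at far above the other cells (2681% at P0), had medians of 141 and 37.2 CPM and did not pass (-0.88 ± 0.73), nor did IGFBP3 (-0.85 ± 0.61). In the barcodes with an SC marker UMI both passed, at -1.79 and -1.51, and without the barcodes richer in FAP markers IGFBP1 was at -4.08 (edgeR adjusted p = 8.89e-06). Of 10 ERK feedback and ETS genes 5 fell and 1 rose (median -1.15, and -0.54 with a lower minimum count and -0.17 without a filter): the phosphatases DUSP6 and DUSP10 fell by 1.62 and 3.86 and MAFF by 3.29, PHLDA1 rose (1.21 ± 0.17), and SPRY2 did not pass the fold threshold (-0.68 ± 0.17). The list is broad: DUSP10 and MAFF are not feedback genes of ERK, and EGR1, another faller, is also in the immediate early list. Its count is therefore no measure of ERK feedback. FOSL1 and ETV4 were untested, with P0 medians of 15.8 and 1.9 CPM.

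The matrix programme was mixed, with 7 of 24 genes of basement membrane and interstitial matrix higher, 10 lower and a median log2FC of 0.54. The median was -0.34 without the barcodes richer in FAP markers (5 higher and 10 lower of 21), -0.49 after thinning and -0.11 without a filter on low counts. The first of these choices reads DCN and LUM, members of this list, so its median is partly set by the choice. LAMA2, the laminin chain of the muscle basement membrane, went from 147, 254 and 404 CPM to 13.5, 23.9 and 43.9 CPM (-3.24 ± 0.24), COL15A1 from a median of 771 to 68.8 CPM (-3.50 ± 0.16), COL4A1 from 1121 to 368 CPM (-1.68 ± 0.15), COL4A2 and NID1 each by 1.87, and SPARC by 1.17. Among the genes that rose, DCN, decorin, measured 48, 67.7 and 767 CPM at Muscle and 777, 1166 and 1686 CPM at P0 (2.72 ± 0.46), LUM, lumican, 0, 11.5 and 106 CPM and then 177, 271 and 439 CPM (3.45 ± 0.42), and FN1, fibronectin, had medians of 18.5 and 213 CPM (2.38 ± 0.51). NID2, a nidogen of the basement membrane, rose from 18 to 202 CPM (3.38 ± 0.23) and BGN from 0 to 36.3 CPM (3.04 ± 0.66). The interstitial collagens COL1A1 (0.70 ± 0.46), COL1A2 (0.50 ± 0.30) and COL3A1 (0.14 ± 0.21) did not pass. With donor as a block COL1A1 passed at 1.08 (edgeR adjusted p = 0.0412). DCN, LUM and COL1A1 are among the FAP markers whose P0 levels are given above, and their log2FC in barcodes with an SC marker UMI was 2.81, 3.50 and 1.13, the last then past the threshold. That subset kept 83.5% of P0 SC barcodes and takes no FAP RNA out of them, so it cannot show how much of these rises was FAP RNA.

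Matricellular and protease genes also went both ways. VCAN, the hyaluronan-binding proteoglycan versican, went from 0, 9.42 and 37.7 CPM to 174, 221 and 395 CPM (4.25 ± 0.32), and CD44, the hyaluronan receptor, from 11, 47.3 and 100.1 CPM to 246, 278 and 369 CPM (2.53 ± 0.17). In all, 4 of 7 such genes rose and 1 fell, against 1 higher and 1 lower of 4 without the barcodes richer in FAP markers (median log2FC 1.47 and 0.85), the faller being CCN1 (-1.21 ± 0.17) and the other risers CCN2 and SPP1, the last with adjusted p = 0.0459, and 0.0511 without donor 3 (edgeR). TNC and THBS1 had P0 medians of 11.6 and 142 CPM, the first untested and the second not past the test. Among proteases and inhibitors 5 of 16 rose and 6 fell (median -0.30, and 0.29 without a filter and -0.66 without the barcodes richer in FAP markers). MMP2, a gelatinase, went from 81, 196 and 237 CPM to 584, 991 and 1248 CPM (2.36 ± 0.15), CTSK rose by 1.84, and of the urokinase system the receptor PLAUR (3.00 ± 0.49) rose while the protease PLAU fell (-2.81 ± 0.31). TIMP3 and ADAMTS1 fell by 2.29 and 1.76. Of 10 integrins and tetraspanins 2 rose and 2 fell (median -0.04, and 0.05 with RLE size factors), near the 15.8% higher and 18.5% lower of all tested genes. Without the barcodes richer in FAP markers 1 of 9 rose and 3 fell (median -0.41), a choice that reads ITGA5 and ITGA7. ITGA5, the fibronectin receptor chain (1.52 ± 0.24), and CD9 (1.35 ± 0.25) rose, CD82 (-3.32 ± 0.16) and ITGA7 fell, and ITGB1 did not pass the fold threshold (-0.41 ± 0.08). ITGA5 also marks FAPs, and the part of FAP RNA in its rise was not tested.

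Cytoskeletal genes were higher in 20 of 43 cases, with 1 lower and a median log2FC of 0.94. ACTB, the cytoplasmic actin, measured 915, 1374 and 2325 CPM at Muscle and 3996, 4553 and 4771 CPM at P0 (1.61 ± 0.12). S100A11, a calcium-binding protein of the cell cortex, went from 552, 1092 and 1474 CPM to 5943, 7021 and 7693 CPM (2.74 ± 0.12), and the actin cross-linker FLNA from 37.8, 75.5 and 121 CPM to 438, 490.2 and 529.7 CPM (2.74 ± 0.12). ACTN1 (3.03 ± 0.27), LGALS3 (3.53 ± 0.42), ANXA2 (1.59 ± 0.15) and TUBA1B (1.22 ± 0.21) rose as well. Among YAP and TEAD genes, a programme of cell spreading on stiff surfaces, 5 of 9 fell and 3 rose (median -1.21, and -0.64 with a lower minimum count, -0.45 without a filter and -0.37 without the top 10% of barcodes by UMIs). ANKRD1 fell from a median of 90.6 to 12.6 CPM and AMOTL2 from 182 to 27 CPM (-2.86 ± 0.11), NT5E fell by 2.50, and MYOF rose (1.96 ± 0.33). TEAD4 was untested at medians of 0 and 8.29 CPM.

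Outside these lists, the largest rises with the same direction in all 9 donors also held RAB20, a vesicle GTPase at 0 in Muscle and at least 32.3-fold higher, UCHL1, a deubiquitinase (33.6, 92.3 and 171 CPM at P0 from 1 UMI at Muscle), HMGA1, a chromatin protein of proliferating cells (medians 1.34 and 172 CPM, 5.55 ± 0.35), LTBP2, NKAIN1 and the homeobox gene IRX3, the last 3 at P0 medians of 58.4, 72.3 and 50.5 CPM from 2 or 3 UMIs at Muscle. IRX3 stood at 235% of the other P0 cells. The largest falls held SPARCL1, a matricellular protein (2783, 3837 and 6656 CPM against 18.7, 39.8 and 53.9 CPM, -6.77 ± 0.26), the matrix calcification inhibitor MGP (-7.80 ± 0.80), C1QTNF3 (-6.62 ± 0.31), the natriuretic peptide NPPC (-10.14 ± 0.62), HMCN2, CPA5, FXYD1 and MGC138914. MGP stood at 19.6% of the other cells at Muscle, C1QTNF3 at 871% and CPA5 at 4199.9%.

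The change in SCs was compared with that in FAPs, the most numerous other cells that share the dish, in 1 model of cell type and time over 8751 genes. The SC change was above the FAP change in 1089 genes (12.4%) and below it in 665 (7.60%), 20.0% in all. Of the 825 genes higher in SCs 661 were also called higher in FAPs and 24 lower, and of the 964 lower genes 589 were also lower in FAPs and 14 higher. Of all 9208 genes tested in FAPs, 20.9% were higher and 22.5% lower. Genes called in opposite directions with the difference itself called numbered 38. FAPs share their libraries and donors with SCs.

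Among the 8 named genes higher in SCs and lower in FAPs, GPX3 had the largest difference, 7.43 ± 0.69 on the log2 scale, with a log2FC of 1.74 in SCs and -5.49 in FAPs. LUM differed by 6.15 ± 0.47, DCN by 5.55 ± 0.47 and FN1 by 5.51 ± 0.51, all falling in FAPs (log2FC -2.49, -2.64 and -2.92). C1R, a complement protease, differed by 5.94 ± 0.63, FIBIN, a secreted factor, by 5.80 ± 0.41, the collagen receptor MRC2 by 5.69 ± 0.37 and SELENBP1 by 5.43 ± 0.41. At P0, FIBIN, MRC2 and SELENBP1 stood at 294%, 276% and 321% of the FAP level in SCs, and GPX3 at 318%. The level in SCs was 121% of that in FAPs for FN1, 90.5% for C1R, 76.1% for LUM and 39.7% for DCN, the last 2 being FAP markers. The opposite genes lower in SCs were H3C7, a replication-dependent histone (-5.58 ± 0.79), MT3 (-5.34 ± 0.82), HMGB3 (-4.89 ± 0.56), the TEAD cofactor VGLL2 (-4.72 ± 0.74), CLDN5 (-4.32 ± 0.43), S100B (-4.08 ± 0.43), the membrane adaptor ANK3 (-3.43 ± 0.40) and the smooth muscle actin ACTA2 (-3.28 ± 0.56). VGLL2, expressed in skeletal muscle, fell in SCs from 0, 64.1 and 136 CPM to 9.36, 17.2 and 30 CPM and stood at 201% of the FAP level. CLDN5, a tight junction protein of endothelium, was at 31.1% of the other cells in Muscle SCs.

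**Figure D5:**
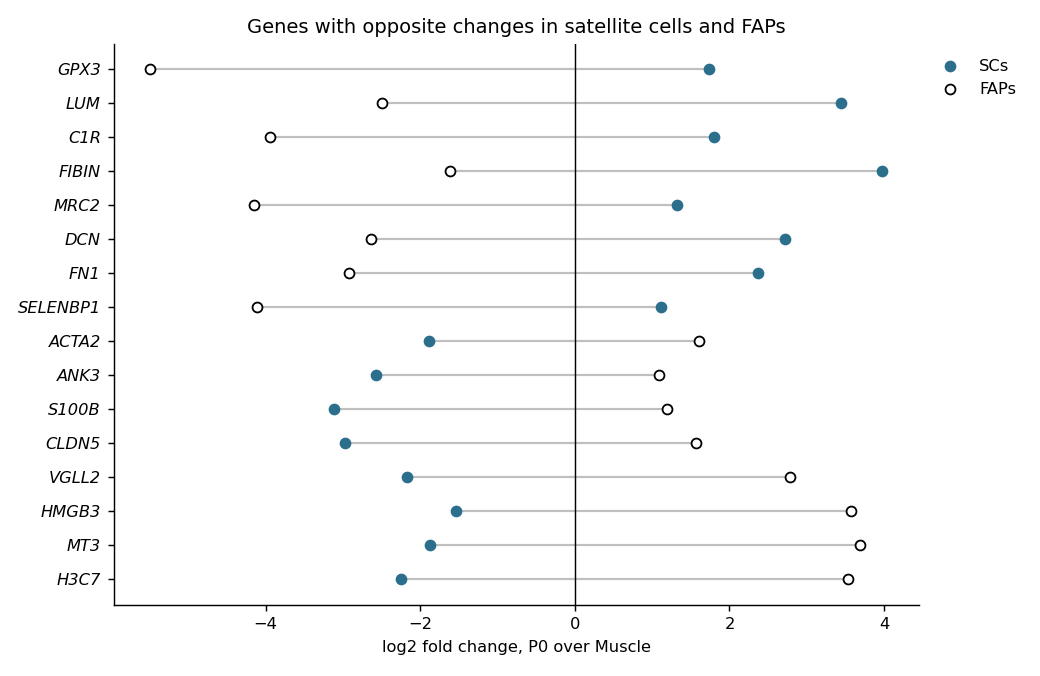
Fold change from Muscle to P0 (log2) in SCs (filled) and FAPs (open) for the 16 genes with the largest difference among those called in opposite directions, 8 with the SC change above and 8 below. GPX3 had a log2FC of 1.74 in SCs and -5.49 in FAPs, and H3C7 of -2.25 and 3.53.

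Among inflammatory genes, SAA3 rose in both types and by 7.24 ± 2.13 more in SCs on the log2 scale, CCL2 by 3.75 ± 0.67 and PTX3 by 2.94 ± 0.80 more. CFB (difference 7.80 ± 1.63) and CHI3L1 (7.83 ± 1.23) rose in SCs and did not pass in FAPs, at log2FC of 0.34 and 0.11. In metabolism TKT rose by 2.84 ± 0.22 and LDHA by 1.43 ± 0.23 more in SCs, while for HMGCS1 the difference was 0.34 ± 0.33 and did not pass. NID2 (difference 4.44 ± 0.26), VCAN (4.04 ± 0.38), CD44 (2.56 ± 0.21) and MMP2 (2.40 ± 0.17) rose in SCs and did not pass in FAPs, where their log2FC was -0.86, 0.42, 0.19 and 0.17. NUPR1 (4.93 ± 0.49) fell in FAPs, with a log2FC of -1.77. HES1 (-1.79 ± 0.30), JUN (-1.55 ± 0.19) and HSPA1A (-1.82 ± 0.64) fell in both types and more in SCs. NOTCH3 (-3.12 ± 0.47) and IRF1 (-2.87 ± 0.30) fell in SCs and did not pass in FAPs, at -0.07 and -0.60.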

How the data were processed

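Per the labels and the study's methods, the authors aligned 10x Genomics reads to the bovine genome (ARS-UCD1.2, Ensembl annotation) with Cell Ranger 6.0.1, assigned donors with demuxlet and kept singlets within 3 median absolute deviations. Of each library the authors deposited a matrix of unnormalized UMI counts over 21880 genes, and the deposited cell tables give the cell type and the percent of mitochondrial UMIs. A combined table of corrected values was not used. Cell types are the authors' deposited labels, and no other doublet caller was run.

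UMI counts were summed per donor, timepoint and type into profiles of at least 10 cells and tested with edgeR 4.0.16 in R 4.3.3 (TMM, filterByExpr, robust quasi-likelihood F test, Benjamini-Hochberg). A gene was called when its adjusted p was under 0.05 and its log2FC beyond 1 in either direction. SE is the absolute log2FC over the square root of F. CPM are scaled by TMM, and levels as a percent of other cells are pooled CPM of each type. Intervals and limits cover counting error only. Summing, thinning (seed 11) and figures used Python 3.11.15.

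The members, gene lists and tests were chosen with earlier results of these data known. Named genes were the 15 largest changes in each direction that all donors shared, each list's key members and up to 4 called members in each direction, and the 8 largest differences in each direction among genes called oppositely in SCs and FAPs. Lists are described by counts and medians without a set test; in the lists with a gene at 0 in 1 group the median was the same with that gene at its bound. Of the list genes 36 symbols were not matched, and a few members are counted but not reported here by name. No coordinates or sequences are given, since the available annotation is of a different assembly.

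Donors pair the groups, being the same animals. Deviations of a donor at both times from the group means correlated between -0.136 and 0.185, above 0.1 in 2 of 9 donors. The blocked fit is an alternative, as are RLE size factors, DESeq2 1.42.0, other filters on counts and cells, thinning, removal of fibre genes, and SC subsets by markers or UMIs. On simulated counts, with 200 genes changed among 4686, the SC comparison recovered 77.6%, 83.6% and 90.9% of genes changed by 1.5, 2 and 3 on the log2 scale, with 0 false calls. A call there also needed the fold threshold. These values do not show how far free RNA, doublets of 1 donor or the single library per time shaped the calls in the real data.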

Additional observations from a re-analysis of the deposited data

Results flagged for a closer look

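Donors are named here where their value stood apart from the other donors of their group by Dixon's test, on the log2 scale of normalised CPM. In 41 of 383 groups of a named gene a donor did so, and chance flags about 1 in 20 groups. Donor 3 at Muscle, the animal without P0 cells, gave 9 of these, donor 5 at P0 gave 8, donor 2 at P0 gave 7 and donor 9 at Muscle gave 5. Values are CPM, and 1 UMI was worth 2.36 to 11 CPM at Muscle and 0.106 to 1.13 CPM at P0. The Muscle profile of donor 3 was the smallest, with 26 cells and 1 UMI worth 11 CPM, so values of 0 or 11 there, and single values of 3.00 to 4.55 above zeros elsewhere, rest on 0 or 1 UMI. At Muscle, donor 2 stood below the other donors for TKT (0) and above the other donors for UCHL1 (3.00). At Muscle, donor 3 stood below the other donors for MYOG (0), RB1 (11), PLK1 (0), ASNS (0), IGFBP3 (0), DUSP10 (11), CTSK (54.8) and VGLL2 (0) and above the other donors for MAFF (208). At Muscle, donor 4 stood above the other donors for IL6 (4.55) and TNC (4.55). At Muscle, donor 6 stood above the other donors for INHBA (7.08). At Muscle, donor 8 stood below the other donors for HK1 (3.44) and CD9 (58.4). At Muscle, donor 9 stood below the other donors for VEGFA (8.1), IGFBP5 (8.1), CCN2 (0) and CDH15 (0) and above the other donors for CHI3L1 (16.2). At P0, donor 1 stood below the other donors for CCN1 (72.8). At P0, donor 2 stood below the other donors for FOSB (0), MYF5 (20.3), ANLN (77.8) and PDGFB (0) and above the other donors for DLK1 (7.89), JAG1 (18) and BGN (135). At P0, donor 5 stood below the other donors for HK1 (139.7), IGFBP5 (0.361), MAFF (5.05) and FIBIN (66) and above the other donors for MYOG (11.9), MYOD1 (39.7), CXCL12 (27.4) and NID2 (349). At P0, donor 8 stood above the other donors for NPPC (0.463) and ATP8 (35). At P0, donor 9 stood below the other donors for NDUFS8 (329) and above the other donors for HMCN2 (0.655).

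The change from Muscle to P0 differed between SCs and FAPs, by the edgeR interaction of cell type and time, for genes given as the SC minus the FAP log2FC. It was above in SCs for SAA3 (7.24), PTX3 (2.94), CFB (7.80), CHI3L1 (7.83), GPX3 (7.43), NUPR1 (4.93), LDHA (1.43), TKT (2.84), CCL2 (3.75), FN1 (5.51), LUM (6.15), NID2 (4.44), DCN (5.55), VCAN (4.04), CD44 (2.56), MMP2 (2.40), C1R (5.94), FIBIN (5.80), MRC2 (5.69) and SELENBP1 (5.43). It was below in SCs for HSPA1A (-1.82), MYF5 (-4.75), CALCR (-7.87), HES1 (-1.79), NOTCH3 (-3.12), JUN (-1.55), MKI67 (-3.56), TOP2A (-4.57), CCNB1 (-5.96), MT3 (-5.34), IRF1 (-2.87), H3C7 (-5.58), HMGB3 (-4.89), VGLL2 (-4.72), CLDN5 (-4.32), S100B (-4.08), ANK3 (-3.43) and ACTA2 (-3.28). For MYF5 and CALCR the FAP change was not tested, and FAPs held at most 2.94 CPM of MYF5 and 0.0808 CPM of CALCR. The differences of MYF5 and CALCR therefore rest on the SC change and do not compare the types. The causes were not tested.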

How the results depend on the processing

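Time in culture and library cannot be told apart, depth per cell differed between the groups, and at P0 most SC barcodes held more UMIs of FAP than of SC genes. The counts moved with the number of genes tested: 1789 of 5221 genes passed the main test (825 higher, 964 lower), 5286 of 15910 (2400 and 2886) without a filter on low counts, 3009 of 8359 (1464 and 1545) with a lower minimum count, and 516 of 1537 (236 and 280) with every profile thinned to the smallest. The difference between SCs and FAPs fell from 1754 to 433 genes (277 above, 156 below) after thinning. With donor as a replicate block over the 9 pairs, 2187 genes passed in SCs (1091 higher, 1096 lower) and 1949 between SCs and FAPs, and COL1A1 passed at 1.08, the single named gene whose call the block changed. The other alternatives, the SC marker subset chosen after seeing the data among them, gave 1512 to 2168 genes. Of the values of named genes, 1955 kept their direction and side of the threshold, 21 passed it newly, 15 no longer passed it, and 1 reversed: DES at 0.0565 (adjusted p = 0.908 in edgeR) without barcodes richer in FAP markers, a choice that reads DES, and the cause was not tested. Leaving out donor 3 and requiring 30 cells were the same fit. Counting it once, IFI6 no longer passed under 6 alternatives and SPP1 under 2. For the differences from FAPs, SAA3, HSPA1A and HES1 no longer passed after thinning.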
